A study of Arabidopsis thaliana with 12 samples.

Results

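The chloroplast genome was represented by 133 of the 33610 gene IDs in the mRNA files. They are all rows whose ID starts with ATCG, the prefix for genes of the Arabidopsis chloroplast genome, and every one had a mean above 0 FPKM (fragments per kilobase of transcript, scaled to the number of mapped fragments, so a level adjusted for gene length and depth) over the 8 libraries. RNA came from inflorescences of Arabidopsis thaliana, ecotype Columbia (Col), grown at 22 °C with 16 h of light and 8 h of dark and given no treatment. Of the 8 libraries, 4 came from amiR-SEAP1 plants, which carry an artificial miRNA, a designed small RNA that guides the silencing machinery to one mRNA, here that of SEAP1, and 4 from wild-type (WT) plants of the same ecotype. The labels do not give the promoter of the artificial miRNA or how many lines were used, and the columns of the amiR-SEAP1 libraries carry the name R155 in the AI set and R15 in the FLW set. Labels and column names do not explain AI, FLW or either of these names.

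Chloroplasts keep a small genome of bacterial origin. In plants generally it encodes core subunits of the photosystems, the cytochrome b6f complex, the ATP synthase and the NADH dehydrogenase-like complex, the large subunit of Rubisco, parts of the plastid ribosome and RNA polymerase, and ribosomal and transfer RNAs, while the partner subunits of the same complexes come from nuclear genes. Many of its genes are transcribed together as multi-gene units that are later cut and trimmed. Most mature chloroplast transcripts carry no long poly(A) tail, and the labels name a standard Illumina mRNA library protocol without describing its selection step, so the levels given here are those of the molecules that this protocol captured. The RefSeq annotation of the assembly TAIR10.1 lists 129 chloroplast genes, of which 85 are protein-coding, 37 are transfer RNAs and 7 are ribosomal RNAs. Its locus tags matched 0 of the 133 ATCG rows and the mRNA files pair the IDs with no names, so each row is called by its ID and no function is assigned to it.

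Replicates 3 and 4 of each genotype have column names with AI and replicates 1 and 2 have column names with FLW. Within a set, the pair of libraries of a genotype differed little: for all genes at 100 to 1000 FPKM the coefficient of variation within pairs was 1.55% to 1.87%, against 14.4% between the sets of amiR-SEAP1 and 19.7% between the sets of WT. Each pair was therefore counted as 1 sample, which leaves n = 2 per genotype, and mean ± SD below is over these. The 2 samples of a genotype are its AI and FLW pairs, so its SD includes the difference between the sets. Nothing in the labels says whether separate plants were used, so the p-values speak only of these pair means, and their spread may be technical. FPKM summed to 680667 to 715611 per library, and relative depths, read from the steps between low values, lay within a factor of 1.17. SEAP1 was not found among the symbols of the annotation, so the level of the silenced gene is not given here. The files give no counts, so no counting interval is attached to any level.

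The chloroplast rows spanned a wide range of levels. The lowest mean over the 8 libraries was 0.0242 FPKM for ATCG01260, and the highest was 1218 FPKM for ATCG01020. Of the 133 rows, 29 had a mean under 1 FPKM, 47 lay between 1 and 5, 28 between 5 and 50, 23 between 50 and 500, and 6 at 500 or above. The 104 rows with a mean of at least 1 FPKM were tested along with all other genes that reached it, 20743 in all. ATCG00250 lay just inside that limit with 1.02 FPKM and ATCG00100 just outside it with 0.880 FPKM. A few rows held most of the signal: the 10 highest rows in each pair of libraries carried 67.8% of the chloroplast FPKM in amiR-SEAP1 AI, 69.0% in WT AI, 65.8% in amiR-SEAP1 FLW and 67.1% in WT FLW. The median row was at 3.06 FPKM in amiR-SEAP1 AI, 2.92 in WT AI, 3.89 in amiR-SEAP1 FLW and 2.81 in WT FLW.

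Many high rows were neighbours in ID order, which follows position along the chromosome, while others, among them the highest, stood alone. The longest run of adjacent IDs with a mean of at least 50 FPKM held 11 rows, ATCG00740 to ATCG00840, with means of 89.9 to 620 FPKM, and carried 42.1% of the chloroplast FPKM. ATCG01020 alone carried 14.7%, ATCG00470 and ATCG00480 together 10.9%, ATCG00220 alone 6.55%, and ATCG00390 with ATCG00400 4.91%. Over 87 pairs of adjacent tested IDs, log2 levels of neighbours correlated with Pearson's r = 0.589 and Spearman's rho = 0.550. This is a description across genes of the same libraries, and genes are not independent replicates. In 10 cases, 20 rows in all, a row and a second row further along the numbering had values within 2% of each other in all 8 libraries, for example ATCG00840 and ATCG01300, or ATCG00900 and ATCG01240. The chloroplast genome of most plants holds an inverted repeat in which genes are present as 2 copies, and reads from such copies cannot be assigned to one of them, so these rows were also counted once per pair, which leaves 97 tested rows.

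**Figure D1:**
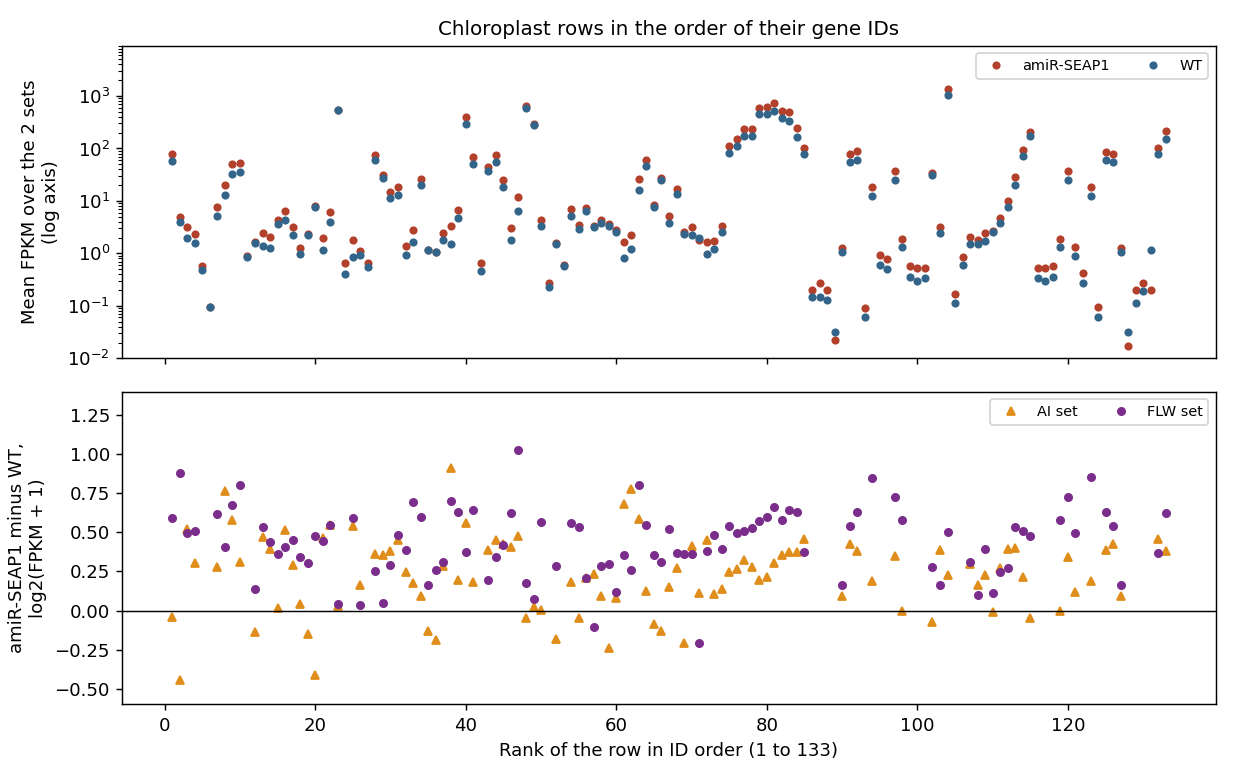
The top panel plots the mean FPKM over the 2 sets (log axis) of each of the 133 chloroplast rows in amiR-SEAP1 (red) and WT (blue), in ID order. The bottom panel plots, for the 104 tested rows, the amiR-SEAP1 minus WT difference in log2(FPKM + 1) in the AI set (triangles) and the FLW set (circles); most points lie above 0, and the run of 11 high IDs forms the plateau near rank 80 in the top panel.

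The chloroplast share of all FPKM was higher in amiR-SEAP1 than in WT in both sets. In the AI set it was 1.13% and 1.08% in the amiR-SEAP1 libraries, against 0.934% and 0.877% in the WT libraries. In the FLW set it was 1.64% and 1.58% in the amiR-SEAP1 libraries, against 1.16% and 1.14% in the WT libraries. The genotypes did not overlap within either set, but they did across sets, since the amiR-SEAP1 AI libraries lay below the WT FLW libraries. The ratio of amiR-SEAP1 to WT was 1.22 in AI and 1.41 in FLW. Over the sets, the share averaged 1.36% ± 0.360 in amiR-SEAP1 and 1.03% ± 0.171 in WT (SD, n = 2 each), a difference of 0.332 percentage points. The exact two-sided permutation test of the pair means gave p = 0.667, and with 2 against 2 values it cannot go below 0.333. It has no set term, so the difference between the sets counts as spread in it. Without the run of 11 high IDs the difference was 0.161 percentage points. In bulk RNA, a different number of cells of a type and a different amount of chloroplast RNA per cell cannot be told apart.

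Other transcripts with little or no poly(A) tail are given beside the share. The mitochondrial share was lower in amiR-SEAP1, at 0.0346% and 0.0375% in amiR-SEAP1 AI against 0.0404% and 0.0398% in WT AI, and at 0.0442% and 0.0412% in amiR-SEAP1 FLW against 0.0581% and 0.0561% in WT FLW. The amiR-SEAP1 to WT ratio was 0.899 in AI and 0.748 in FLW (exact two-sided permutation test of the pair means, p = 0.667). The summed FPKM of 84 small nucleolar and small nuclear RNA rows was 675 and 683 in amiR-SEAP1 AI against 514 and 515 in WT AI, and 528 and 523 in amiR-SEAP1 FLW against 445 and 437 in WT FLW. The sum of these RNAs was thus higher in amiR-SEAP1, as the chloroplast share was, and the mitochondrial share was lower. By row, the mitochondrial direction differed between the sets. Of 31 tested mitochondrial rows, 19 were higher in amiR-SEAP1 in AI (median 0.05), against 58.4% of all genes. In FLW 5 of the 31 were higher (median -0.30), against 49.4% of all genes. The part of transcript capture in the chloroplast result was not tested.

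**Figure D2:**
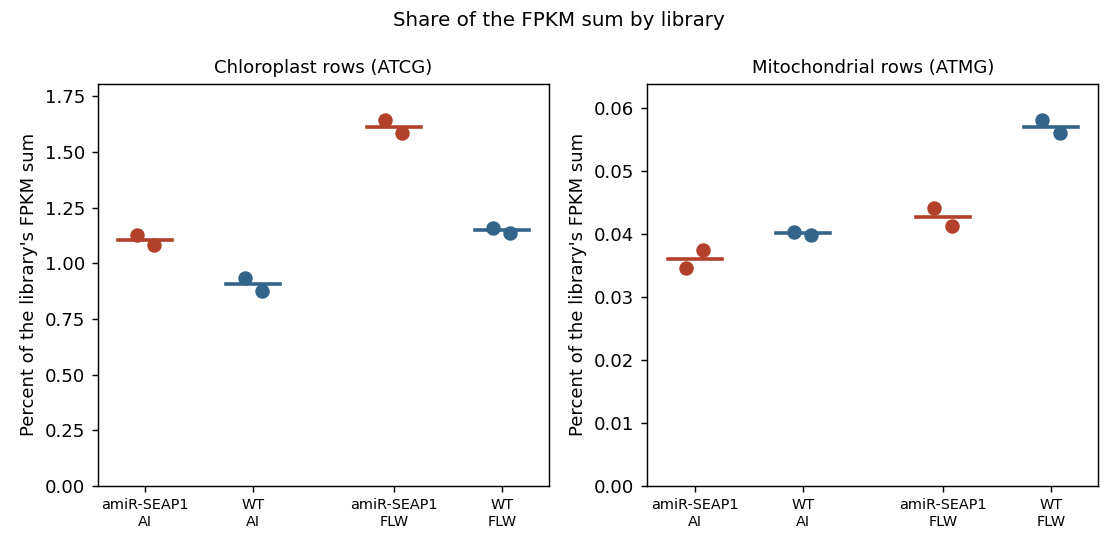
The plots give the percent of each library's FPKM sum on chloroplast rows (left) and mitochondrial rows (right), with points for libraries and lines for pair means. In each set the amiR-SEAP1 libraries lie above the WT libraries on the left and below them on the right, and AI lies below FLW in both genotypes.

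By row, no chloroplast gene passed the genotype test, yet the direction was nearly uniform. In limma's test of the 4 pair means with genotype and header set as terms (Benjamini-Hochberg adjustment over 20743 genes, FDR 0.05), 0 of the 104 chloroplast rows passed in either direction, where 0% of all genes passed. The smallest adjusted p among the rows was 0.258. With 4 pair means and these terms, the spread in the test is how far the genotype difference varied between the sets, pooled in part over genes. At an unadjusted p under 0.05, 41 of the 104 rows (39.4%) were higher in amiR-SEAP1, against 6.96% of all genes tested, and 0 rows were lower, against 7.25% of all genes. A fit of the 8 libraries with an estimated correlation within pairs passed 33 rows as higher at the same FDR (31.7%), against 7.44% of all genes, and 0 as lower, against 7.59%. That fit used 1 correlation, 0.70, for all genes, so the libraries of a pair, which differed little, still counted as partly separate. Of any size, 103 of the 104 rows were higher in amiR-SEAP1 (99.0%), against 55.1% of all genes, and 1 was lower, against 44.9% of all genes. The number of higher rows was 102 with quantile normalization or a pseudocount of 0.1 and 97 to 104 when single libraries were left out. The median difference was 0.36 on the log2(FPKM + 1) scale, with a range of -0.05 to 0.81, beside a median of 0.03 over all genes. On this scale the change of low rows is understated.

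The sign held within each set for most rows. In AI the median chloroplast difference was 0.26, beside 0.06 for all genes, and in FLW it was 0.46, beside -0.00 for all genes. In AI, 85 of the 104 rows (81.7%) were higher in amiR-SEAP1 at any size, against 58.4% of all genes, and in FLW 102 (98.1%) were, against 49.4%. In AI, 71 of 104 rows (68.3%) had both amiR-SEAP1 libraries above both WT libraries, against 48.7% of all genes, and 10 rows (9.62%) had both below, against 33.8%. In FLW these counts were 90 rows (86.5%) above, against 37.4% of all genes, and 0 below, against 38.2%. In both sets 64 rows (61.5%) lay above WT without overlap, against 25.7% of all genes, and 0 lay below, against 19.9%. The difference was larger in FLW than in AI for 78 rows (75%), against 42.7% of all genes. Across the 104 rows the AI and FLW differences correlated with Pearson's r = 0.214 and Spearman's rho = 0.259, a description across genes. The same values over all 20743 genes were 0.332 and 0.382. In FLW the differences of all genes spanned -5.56 to 5.23, and those of the rows -0.21 to 1.03. A correlation depends on that range, so these values cannot be compared directly.

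Rows of every level class shared the direction. The 29 rows with a mean of at least 50 FPKM had a median difference of 0.41 (0.04 to 0.51). Of these 29, 18 were higher at an unadjusted p under 0.05 in limma's test, against 6.96% of all genes. In 24 of them amiR-SEAP1 lay above WT without overlap in both sets, against 25.7% of all genes. The 28 rows between 5 and 50 FPKM had a median of 0.44, with 17 at an unadjusted p under 0.05, and the 47 rows between 1 and 5 FPKM had a median of 0.29, with 6, a share closer to that over all genes. With 1 row kept of each pair that shares values, the median of the 97 rows was 0.35, with 37 at an unadjusted p under 0.05. Among the 29 rows under 1 FPKM, which were not tested, 21 had the higher pair mean in amiR-SEAP1 in both sets, against 36.7% of all tested genes. The tested genes average at least 1 FPKM, so that share is from another level class. Some of the 29 rows also share values, such as ATCG00970 and ATCG01160, and are not separate observations. The gap between the libraries of a pair was a median of 3.42% to 5.44% for rows of at least 50 FPKM and 9.72% to 12.0% for the other tested rows.

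The highest row, ATCG01020, had 1264 and 1267 FPKM in amiR-SEAP1 AI against 1137 and 1021 FPKM in WT AI, and 1551 and 1415 FPKM in amiR-SEAP1 FLW against 1048 and 1042 FPKM in WT FLW. All 4 amiR-SEAP1 libraries lay above all 4 WT libraries, and its mean was 1374 ± 154 FPKM in amiR-SEAP1 and 1062 ± 23.8 FPKM in WT (SD, n = 2). The fitted difference was 0.37 ± 0.30 (SE, log2(FPKM + 1), adjusted p = 0.583 in limma's test). ATCG00390 also separated the genotypes in every library, with 400.0 and 392 FPKM in amiR-SEAP1 AI against 278 and 258 FPKM in WT AI, and 425 and 392 FPKM in amiR-SEAP1 FLW against 325 and 304 FPKM in WT FLW. This row, chosen after its values were seen, was among the few high rows with a larger difference in AI (0.56) than in FLW (0.38).

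All 11 rows of the run ATCG00740 to ATCG00840 were higher in amiR-SEAP1 in both sets, by 0.20 to 0.46 in AI and by 0.37 to 0.66 in FLW on the log2(FPKM + 1) scale. The summed level of the run was 3135 FPKM in amiR-SEAP1 AI against 2563 FPKM in WT AI, and 4936 FPKM in amiR-SEAP1 FLW against 3277 FPKM in WT FLW. In limma's test 7 of the 11 were higher at an unadjusted p under 0.05, against 6.96% of all genes. ATCG00800, the highest of them, had 561 and 533 FPKM in amiR-SEAP1 AI against 464 and 421 FPKM in WT AI, and 921 and 903 FPKM in amiR-SEAP1 FLW against 580 and 573 FPKM in WT FLW. Its genotypes were apart within both sets, with folds of 1.24 in AI and 1.58 in FLW. ATCG00820 had 339 and 320 FPKM in amiR-SEAP1 AI against 264 and 243 FPKM in WT AI, and 663 and 658 FPKM in amiR-SEAP1 FLW against 426 and 419 FPKM in WT FLW. Its difference of 0.51 ± 0.18 (SE; adjusted p = 0.343 in limma's test) was the largest of the run.

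The other 3 rows of the run among the 8 highest rows behaved alike. ATCG00790 had 532 and 530 FPKM in amiR-SEAP1 AI against 467 and 447 FPKM in WT AI, and 702 and 711 FPKM in amiR-SEAP1 FLW against 465 and 465 FPKM in WT FLW. ATCG00780 had 509 and 467 FPKM in amiR-SEAP1 AI against 437 and 414 FPKM in WT AI, and 697 and 701 FPKM in amiR-SEAP1 FLW against 470 and 470 FPKM in WT FLW. In both rows WT differed little between the sets, and the amiR-SEAP1 FLW libraries stood highest. ATCG00810 had 423 and 415 FPKM in amiR-SEAP1 AI against 341 and 314 FPKM in WT AI, and 635 and 630 FPKM in amiR-SEAP1 FLW against 421 and 426 FPKM in WT FLW, so its AI amiR-SEAP1 libraries lay at the level of its FLW WT libraries.

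ATCG00220 did not separate the genotypes in either set, and ATCG00470 did so in FLW alone. ATCG00220 had 636 and 573 FPKM in amiR-SEAP1 AI against 644 and 540 FPKM in WT AI, and 519 and 465 FPKM in amiR-SEAP1 FLW against 465 and 490 FPKM in WT FLW. The libraries overlapped in both sets, and the fitted difference of 0.04 ± 0.19 changed sign when amiR-SEAP1 replicate 1, amiR-SEAP1 replicate 3 or WT replicate 4 was left out. ATCG00470 had 420 and 401 FPKM in amiR-SEAP1 AI against 420 and 429 FPKM in WT AI, and 911 and 822 FPKM in amiR-SEAP1 FLW against 788 and 742 FPKM in WT FLW. Its genotypes were apart in FLW, with a fold of 1.13, and close in AI, with a fold of 0.967. Its neighbour ATCG00480, chosen after its values were seen, had 206 and 202 FPKM in amiR-SEAP1 AI against 198 and 203 FPKM in WT AI, and 400.3 and 363 FPKM in amiR-SEAP1 FLW against 376 and 347 FPKM in WT FLW. These adjacent rows differed far more between the sets than between the genotypes.

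**Figure D3:**
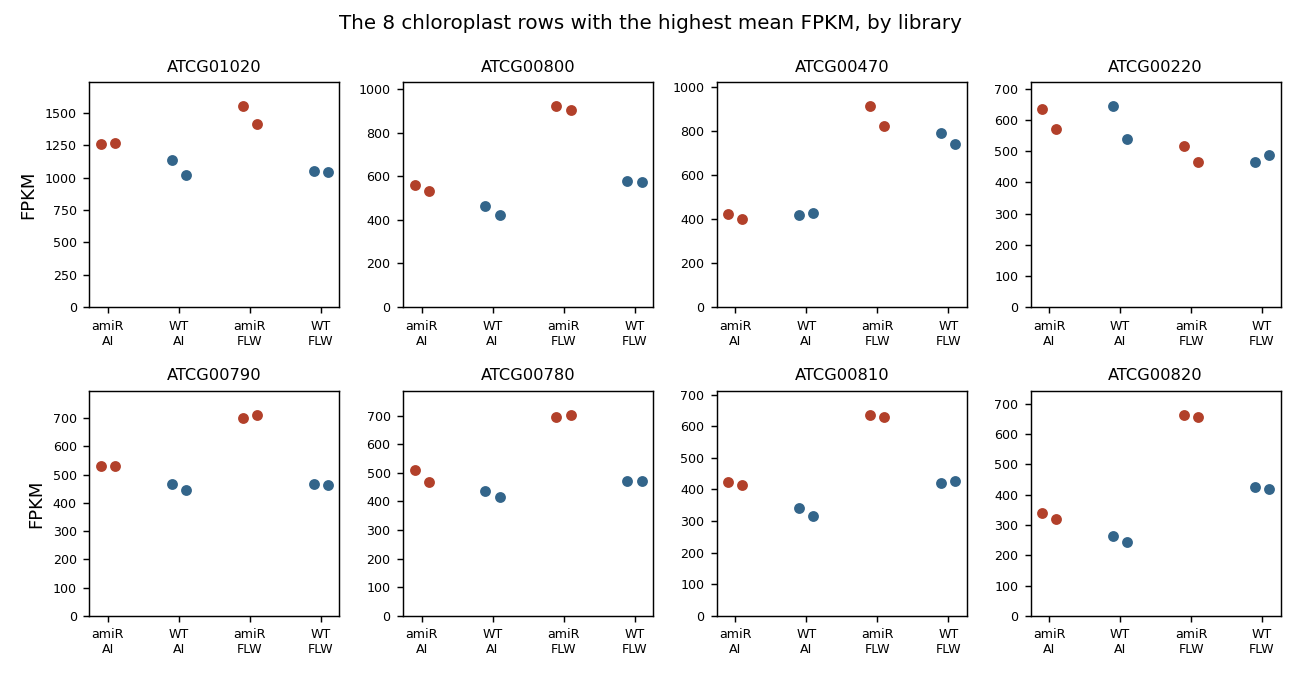
Each panel plots the FPKM of 1 of the 8 chloroplast rows with the highest mean in the 8 libraries (red, amiR-SEAP1; blue, WT), with the AI set on the left. The amiR-SEAP1 FLW libraries are the highest in every panel except ATCG00220, where AI lies above FLW in both genotypes.

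The largest differences by genotype were in rows of low to middle level. ATCG00370 had 3.23 and 2.94 FPKM in amiR-SEAP1 AI against 0.962 and 1.38 FPKM in WT AI, and 4.26 and 2.85 FPKM in amiR-SEAP1 FLW against 1.02 and 2.59 FPKM in WT FLW (0.81 ± 0.16 SE, adjusted p = 0.264 in limma's test). Its pairs were uneven in FLW, and the 4 amiR-SEAP1 libraries still lay above the 4 WT libraries. ATCG00460 had 9.49 and 7.58 FPKM in amiR-SEAP1 AI against 5.23 and 6.46 FPKM in WT AI, and 15.8 and 15.02 FPKM in amiR-SEAP1 FLW against 6.50 and 7.61 FPKM in WT FLW. In FLW this was a fold of 2.18. ATCG00620 had 28.5 and 27.8 FPKM in amiR-SEAP1 AI against 19.3 and 17.5 FPKM in WT AI, and 25.01 and 25.6 FPKM in amiR-SEAP1 FLW against 12.8 and 15.2 FPKM in WT FLW (0.70 ± 0.10 SE, adjusted p = 0.258 in limma's test). Here all amiR-SEAP1 libraries stood clear of all WT libraries, as they did for 30 of the 104 rows (28.8%), against 14.8% of all genes, while 0 rows had all amiR-SEAP1 libraries below WT, against 9.56%. Comparing pair means, 83 rows (79.8%) were higher in amiR-SEAP1 in both sets, against 36.7% of all genes, and 0 were lower in both, against 28.9%. ATCG00700, the single row with a fitted difference below 0, had 1.48 and 1.26 FPKM in amiR-SEAP1 AI against 1.08 and 1.31 FPKM in WT AI, and 3.40 and 0.996 FPKM in amiR-SEAP1 FLW against 3.12 and 2.26 FPKM in WT FLW, so its genotypes overlapped in both sets.

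In 10 rows amiR-SEAP1 lay above WT in FLW and below WT in AI with no overlap in either set (9.62%, against 6.74% of all genes), while 0 rows showed the reverse, against 11.5% of all genes. These rows were chosen after their values were seen, and the difference between the sets was not tested. ATCG00020 had 3.42 and 2.98 FPKM in amiR-SEAP1 AI against 4.43 and 4.99 FPKM in WT AI, and 7.02 and 6.55 FPKM in amiR-SEAP1 FLW against 3.29 and 3.18 FPKM in WT FLW. ATCG00190 had 6.57 and 6.49 FPKM in amiR-SEAP1 AI against 8.77 and 9.31 FPKM in WT AI, and 9.11 and 9.62 FPKM in amiR-SEAP1 FLW against 6.66 and 6.25 FPKM in WT FLW. That the genotypes traded places between the sets follows from how the 10 rows were chosen. The other 8 had differences of -0.05 to -0.24 in AI and 0.16 to 0.54 in FLW. None of the 10 rows had a mean of 50 FPKM or more.

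**Figure D4:**
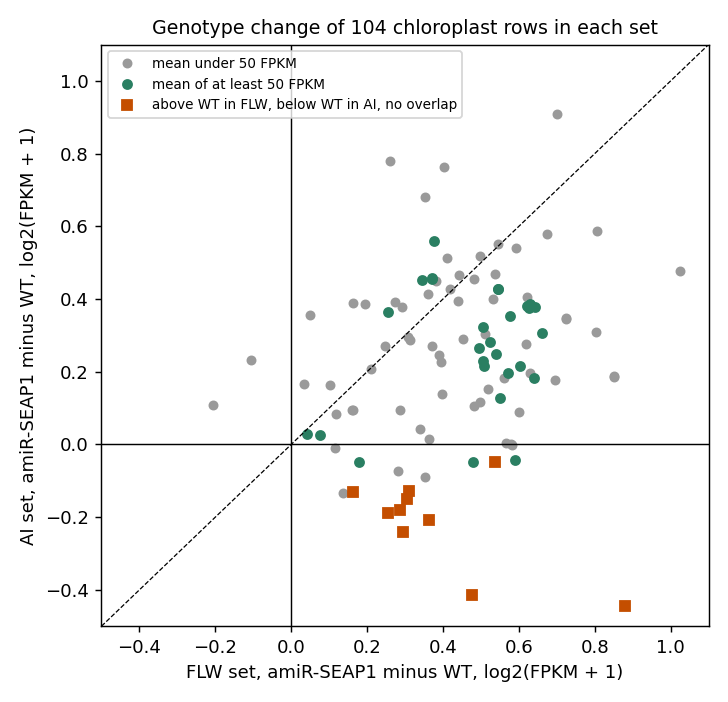
Each of the 104 tested chloroplast rows is placed by its amiR-SEAP1 minus WT difference in log2(FPKM + 1) in the FLW set (horizontal) and the AI set (vertical), and the dashed line marks equal differences. The 83 rows above 0 in both sets fill the upper right, 78 rows lie below the dashed line, and the 10 squares are the rows with opposite, non-overlapping differences.

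The header sets differed in the chloroplast share too, with AI below FLW in both genotypes. The share averaged 1.005% ± 0.141 in AI and 1.38% ± 0.329 in FLW (SD, n = 2 each), a difference of -0.376 percentage points. The exact two-sided permutation test of the pair means gave p = 0.333, which is the smallest value it can give. The ratio of AI to FLW was 0.685 in amiR-SEAP1 and 0.789 in WT. Set, replicate number and, for amiR-SEAP1, the R155 or R15 name go together in the column names, and they cannot be told apart.

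In limma's test of AI minus FLW, 0 of the 104 chloroplast rows passed the FDR of 0.05 in either direction, as did 0% of all genes, and the smallest adjusted p among the rows was 0.0632, for ATCG00840. At an unadjusted p under 0.05, 33 rows (31.7%) were lower in AI, against 11.5% of all genes, and 2 rows (1.92%) were higher, against 9.41%. The fit with an estimated correlation within pairs passed 31 rows as lower at that FDR (29.8%), against 13.5% of all genes, and 0 as higher, against 11.8%. As above, that fit counts the libraries of a pair as partly separate. Both genotypes had AI below FLW without overlap in 44 rows (42.3%), against 27.7% of all genes, and AI above FLW in 6 rows (5.77%), against 23.4%. Of any size, 77 rows (74.0%) were lower in AI, against 53.5% of all genes, and 27 rows (26.0%) were higher, against 46.5%. The median difference was -0.22, beside -0.02 for all genes, and it was -0.34 within amiR-SEAP1 and -0.06 within WT. The 29 rows of at least 50 FPKM had a median of -0.48.

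The largest set difference was that of ATCG00010, with 26.8 and 32.0 FPKM in amiR-SEAP1 AI against 128 and 125 FPKM in amiR-SEAP1 FLW, and 29.3 and 31.4 FPKM in WT AI against 87.0 and 80.1 FPKM in WT FLW (-1.75 ± 0.18 SE, adjusted p = 0.0696 in limma's test). The genotypes had almost the same level in AI and stood apart in FLW. ATCG00840 had 70.0 and 65.9 FPKM in amiR-SEAP1 AI against 140 and 134 FPKM in amiR-SEAP1 FLW, and 51.5 and 47.1 FPKM in WT AI against 106 and 105 FPKM in WT FLW. The sets stood apart in either genotype, by -1.04 ± 0.10 (SE) on the log2(FPKM + 1) scale in the fit, and its counterpart ATCG01300 had values within 2% of these. ATCG00290 had 9.84 and 8.78 FPKM in amiR-SEAP1 AI against 20.4 and 19.0 FPKM in amiR-SEAP1 FLW, and 6.42 and 7.44 FPKM in WT AI against 15.9 and 15.9 FPKM in WT FLW (-1.05 ± 0.10 SE, adjusted p = 0.0634 in limma's test). ATCG00320, a low row, had 0.357 and 1.84 FPKM in amiR-SEAP1 AI against 4.23 and 4.82 FPKM in amiR-SEAP1 FLW, and 0.956 and 0.762 FPKM in WT AI against 1.98 and 2.84 FPKM in WT FLW. Among the highest rows, ATCG00470 differed by -0.96 ± 0.21 (SE, adjusted p = 0.145 in limma's test), and ATCG00480 by -0.88.

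Fewer rows were higher than lower in AI, 27 of the 104 (26.0%), against 46.5% of all genes. ATCG00550 had 10.005 and 8.45 FPKM in amiR-SEAP1 AI against 6.10 and 5.31 FPKM in amiR-SEAP1 FLW, and 9.23 and 6.50 FPKM in WT AI against 6.22 and 3.37 FPKM in WT FLW (0.61 ± 0.11 SE, adjusted p = 0.130 in limma's test). ATCG00080 had 59.3 and 54.5 FPKM in amiR-SEAP1 AI against 43.0 and 45.0 FPKM in amiR-SEAP1 FLW, and 36.1 and 39.5 FPKM in WT AI against 30.2 and 24.2 FPKM in WT FLW. This row was also higher in amiR-SEAP1 in both sets and had the smallest genotype p of all chloroplast rows (0.63 ± 0.09 SE, adjusted p = 0.258 in limma's test). ATCG00610 had 3.00 and 3.10 FPKM in amiR-SEAP1 AI against 1.61 and 1.45 FPKM in amiR-SEAP1 FLW, and its WT libraries overlapped between the sets, with 1.45 and 1.27 FPKM in AI against 0.579 and 1.64 FPKM in FLW.

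Nuclear genes that work with the chloroplast genome were set beside the rows. Of 30 nuclear genes for partner subunits of the same complexes (photosystems, cytochrome b6f, ATP synthase, Rubisco and the NADH dehydrogenase-like complex), 0 passed the FDR in limma's genotype test, 1 was higher at an unadjusted p under 0.05, where 6.96% of all genes were, and 0 were lower, where 7.25% of all genes were, so these counts lay near the share over all genes. Their median difference was 0.07, with 0.12 in AI and -0.00 in FLW, against 0.36, 0.26 and 0.46 for the chloroplast rows. Their summed level was 22636 and 22726 FPKM in amiR-SEAP1 AI against 20702 and 20928 FPKM in WT AI, and 26216 and 26045 FPKM in amiR-SEAP1 FLW against 26211 and 25214 FPKM in WT FLW. In FLW, where the chloroplast rows differed most between the genotypes, the partner genes thus differed little. In AI, 28 of the 30 partner genes were higher in amiR-SEAP1 at any size, against 58.4% of all genes and 81.7% of the chloroplast rows. In FLW, 15 of the 30 were, against 49.4% of all genes and 98.1% of the chloroplast rows. The exception at the unadjusted p was NDHM, for a subunit of the NADH dehydrogenase-like complex (0.35 ± 0.13 SE, adjusted p = 0.350 in limma's test). The 4 Rubisco small-subunit genes are near-identical copies whose single values are uncertain.

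Of 20 nuclear genes of chloroplast transcription, the sigma factors that direct the plastid-encoded polymerase to promoters, the proteins associated with that polymerase and the phage-type polymerases, 0 passed the FDR, 5 were higher in amiR-SEAP1 at an unadjusted p under 0.05, against 6.96% of all genes, and 0 were lower, against 7.25%. Their median was 0.22, with 0.12 in AI, where 12 of 20 were above 0, near the 58.4% of all genes, and 0.33 in FLW, where 20 of 20 were, against 49.4% of all genes. PAP3, an associated protein, had a pair mean of 42.5 FPKM in amiR-SEAP1 AI against 33.9 FPKM in WT AI and of 56.5 FPKM in amiR-SEAP1 FLW against 35.1 FPKM in WT FLW (0.50 ± 0.12 SE, adjusted p = 0.291 in limma's test). The sigma factor genes SIG1 (0.43 ± 0.12 SE) and SIG4 (0.32 ± 0.10 SE) followed, with adjusted p of 0.2999 and 0.321 in the same test. Of 10 tested nuclear genes for factors that cut, trim or stabilise chloroplast RNA, with a median of 0.17, 2 were higher at that p, against the same 6.96% of all genes, the endonuclease gene RNE (0.49 ± 0.11 SE, adjusted p = 0.279 in limma's test) and MRL1, whose product stabilises the rbcL transcript (0.30 ± 0.10 SE, adjusted p = 0.341). CSP41A, for an RNA-binding chloroplast protein, differed by -0.23 ± 0.10 (SE, adjusted p = 0.383 in limma's test).

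Among 3 regulators of greening, 2 were higher at an unadjusted p under 0.05, against 6.96% of all genes, and 0 passed the FDR. GLK1, a transcription factor that activates nuclear photosynthesis genes, had 26.8 and 26.5 FPKM in amiR-SEAP1 AI against 16.15 and 15.8 FPKM in WT AI, and 31.2 and 29.2 FPKM in amiR-SEAP1 FLW against 19.9 and 20.4 FPKM in WT FLW (0.63 ± 0.09 SE, adjusted p = 0.258 in limma's test). GLK2, its relative, had 25.6 and 24.2 FPKM in amiR-SEAP1 AI against 18.4 and 19.4 FPKM in WT AI, and 24.6 and 25.3 FPKM in amiR-SEAP1 FLW against 19.0 and 18.9 FPKM in WT FLW (0.38 ± 0.09 SE, adjusted p = 0.281 in limma's test). For both, every amiR-SEAP1 library lay above every WT library. GUN1, a chloroplast protein of signalling to the nucleus, differed by 0.27 ± 0.10 (SE, adjusted p = 0.355 in limma's test).

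Markers of flower cell types moved beside these differences. The 5 pollen markers, present in every library, summed to 1056 and 1070 FPKM in amiR-SEAP1 AI against 1261 and 1263 FPKM in WT AI, and to 1331 and 1325 FPKM in amiR-SEAP1 FLW against 1896 and 1879 FPKM in WT FLW. All 5 were lower in amiR-SEAP1, with a median of -0.50, and 3 had an unadjusted p under 0.05 in limma's test (VGDH1, ADF7 and PRF4), where 7.25% of all genes were lower. The 5 markers of the tapetum, the cell layer that feeds developing pollen, summed to 706 and 723 FPKM in amiR-SEAP1 AI against 503 and 504 FPKM in WT AI. In FLW they summed to 490 and 479 FPKM in amiR-SEAP1 against 702 and 678 FPKM in WT. By marker, 5 of 5 were higher in amiR-SEAP1 in AI and 1 of 5 in FLW. The FLW sums rest largely on LTP12, with a pair mean of 267 FPKM in amiR-SEAP1 against 438 FPKM in WT. The FLW difference was 0.01 for TDF1 and -0.11 for A9. No marker of either list was at 0. The part of these cell types in the chloroplast result was not tested.

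**Figure D5:**
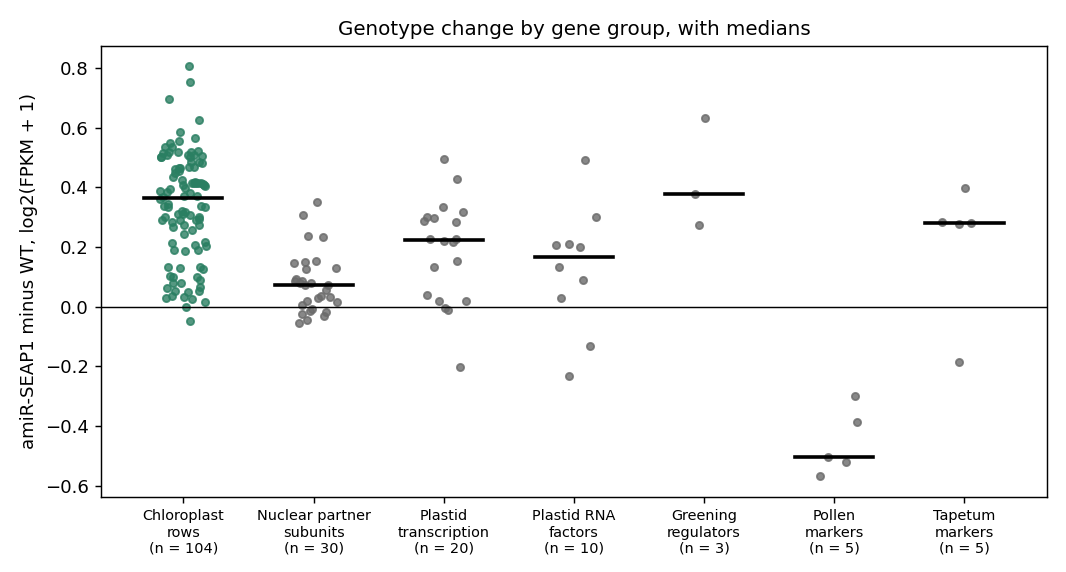
Points are genes and bars are medians of the fitted amiR-SEAP1 minus WT difference in log2(FPKM + 1), for the chloroplast rows (green) and the nuclear and marker lists (grey). The chloroplast median of 0.36 lies above those of the partner subunits (0.07), the transcription genes (0.22), the RNA factors (0.17) and the tapetum markers (0.28). It lies just below that of the 3 greening regulators (0.38), and the pollen markers all lie below 0.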

How the data were processed

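The authors deposited FPKM per gene for 8 mRNA libraries, per the file headers, and these values were used as deposited. HISAT2 and the build TAIR10 are named without a version, per the submitters' processing notes. The program that computed FPKM, its annotation, its use of strand and its treatment of reads that align to several places are not given in the sources used for this work. FPKM is relative to each library's total, so a change in other transcripts moves it. The small RNA files were not used.

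Titles gave the genotype and replicate of each library, and the set (AI or FLW) from the column name. FPKM values were transformed as log2(FPKM + 1), the 4 pair means were fitted with limma 3.58.1 (R 4.3.3, mean-variance trend, terms for genotype and set), and p-values were adjusted by Benjamini-Hochberg over the 20743 genes whose mean reached 1 FPKM. The fit was tested on simulated data. A share is the percent of a library's FPKM sum. All differences are amiR-SEAP1 minus WT or AI minus FLW. Of the 33610 IDs, 28932 matched a RefSeq locus tag of TAIR10.1, used for nuclear symbols only. No sequence is shown.

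Same-numbered libraries of the genotypes deviated together from the genotype means (r = 0.398 to 0.430), but from the pair means by only -0.00501 to 0.0270, so a number marks the set and no closer pairing.

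The members, lists and tests were chosen with earlier results of these data known. Named rows were to be the 4 highest of each role group, but the IDs could not be paired with roles, so the 8 highest rows overall were taken after seeing the data, with the 3 largest rises and falls per contrast that keep their sign and, in each nuclear list, up to 3 genes by smallest genotype p. For the same reason role groups were not described. Alternatives covered the pairs, the block, pseudocounts, filters, scaling and left-out libraries.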

Additional observations from a re-analysis of the deposited data

Results flagged for a closer look

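In 10 chloroplast rows (9.62%, against 6.74% of all genes) every amiR-SEAP1 library lay above every WT library in FLW and below in AI. The difference between the sets was not tested. On the log2(FPKM + 1) scale, amiR-SEAP1 minus WT was -0.44 in AI and 0.88 in FLW for ATCG00020, and -0.42 in AI and 0.48 in FLW for ATCG00190. It was -0.24 in AI and 0.30 in FLW for ATCG00580, -0.21 and 0.36 for ATCG00680, -0.19 and 0.26 for ATCG00350, and -0.18 and 0.29 for ATCG00510. It was -0.15 in AI and 0.31 in FLW for ATCG00180, -0.13 and 0.16 for ATCG00340, -0.13 and 0.31 for ATCG00650, and -0.05 and 0.54 for ATCG00540.

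ATCG00790 had 447 FPKM in WT replicate 4, against 465 to 467 FPKM in the other WT libraries. That gap is 0.920 of the group's range, above Dixon's 95% critical value for 4 samples. The 4 WT libraries are 2 pairs that differ little within a pair and were counted as n = 2 in the report, so they are not 4 independent samples. Chance flags about 5% of groups, and 56 groups were examined.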

How the results depend on the processing

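The signs of the chloroplast share difference and of the median row difference held under the alternatives run for them, while counts of genes past the FDR depended on how the pairs entered the fit. In limma, the 8 libraries taken as independent gave 4676 genes higher and 3786 lower in amiR-SEAP1 (64 chloroplast rows higher), and 4646 higher and 5451 lower in AI (7 and 44 chloroplast rows). Without the set term the genotype counts were 1556 and 975 (18 chloroplast rows higher). The estimated correlation within pairs gave 1543 and 1575 by genotype (33 higher) and 2444 and 2791 by set (31 lower). Same-numbered libraries share only a set: with a block for the replicate number, 2852 genes were higher and 2306 lower (50 chloroplast rows higher), beside 0 for the pair means, which gave 41 rows higher at an unadjusted p under 0.05, a limit added after seeing the data.

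By set, 5 genes were higher and 110 lower in AI with a pseudocount of 5, 53 and 240 among genes averaging 5 FPKM or more, 26 and 210 with scaling to the nuclear sum, and 25 and 199 with scaling to the same sum. The last 3 each passed 4 chloroplast rows as lower, of 57 tested with the 5 FPKM filter and of 104 tested with either scaling. The median genotype difference was 0.21 with the pseudocount of 5. Leaving out single libraries gave 0 to 1 genes higher and 0 to 0 lower by genotype, 0 to 12 higher and 0 to 118 lower by set, and 0 to 0 chloroplast rows in any direction. The share difference was then 0.318 to 0.347 percentage points by genotype and -0.390 to -0.361 by set, and the medians were 0.34 to 0.38 and -0.26 to -0.19. ATCG00220 changed sign by genotype without amiR-SEAP1 replicate 1 (-0.00429), without amiR-SEAP1 replicate 3 (-0.00217) and without WT replicate 4 (-0.0246), and reached 0.102 without WT replicate 3. The cause of these changes was not tested. The share of protein-coding rows alone was not run, since the IDs could not be paired with gene types. With 2 values per genotype and no counts in the files, depth limits the low rows most.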

Other observations

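ATCG00850 and ATCG01290, both under 1 FPKM on average, had identical values in 7 of the 8 libraries. In WT replicate 4 they differed, with 4.18 FPKM for ATCG01290 and 0.105 FPKM for ATCG00850, and no other library of either genotype put ATCG01290 above 0.414 FPKM. ATCG00830 and ATCG01310 fell outside the 2% limit for shared values, with means of 206 and 184 FPKM over the 8 libraries. ATCG00830 was higher by a similar proportion in every library. Examples are 317 against 282 FPKM in amiR-SEAP1 replicate 1 and 131 against 117 FPKM in WT replicate 4. Their genotype differences were 0.50 and 0.50 on the log2(FPKM + 1) scale and may not be separate observations. Whether these rows hold the same reads was not tested. Both were kept when rows that share values were counted once per pair.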
